A study of Homo sapiens with 12 samples.

Results

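The clathrin adaptor subunits described here were 10 genes, AP1S1, AP1S2, AP1S3, AP1M1, AP1M2, AP1G1, AP1G2 and AP1B1 of the adaptor complex AP-1 and AP2M1 and AP2S1 of AP-2, out of 10626 genes tested. The family was chosen by measured values, the spread of AP1S1 between arrays of 1 group and the 12 h differences of AP1S1 and AP1S3, and its members were then listed by name. The values of AP1S1, and those of AP1S3 other than at 48 h, are therefore given as description, with no test. All 26 probe sets assigned to these genes alone were taken from the 54675 on the array. A probe set was kept when its log2 value exceeded 4 in at least 3 of the 12 arrays, and 24 of the 26 were kept. The probe sets left out were 214341_at of AP1G2, at 2.61 to 2.67, and 1555421_at of AP1S3, at 3.07 to 3.76, which lay under a log2 value of 4 on every array. A further probe set annotated both to AP1G2 and to another gene was not used. AP-1 names the adaptor complex throughout, not the FOS and JUN transcription factor of the same name.

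HK-2 is an immortalised line of human proximal tubule epithelium, and every group was a culture of this 1 line in the same medium. The groups were cells given the compound called Di for 12 h, vehicle controls at 12 h, cells given Di for 48 h and vehicle controls at 48 h, with 3 biological replicates and 1 array each. The identity and the dose of Di are not given in the sources used here. The deposited values were log2 expression values, so a difference of 1 is a change of 2-fold, and the number of arrays limits the precision.

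Clathrin adaptors link a membrane, the sorting signals of cargo proteins and the clathrin coat. AP-1 works at the trans-Golgi network and on endosomes, where it sorts lysosomal enzyme receptors and, in epithelia, proteins bound for the basolateral surface. AP-2 works at the plasma membrane in endocytosis, which the proximal tubule uses to take up filtered protein. Each complex joins a pair of large subunits (gamma and beta in AP-1, alpha and beta in AP-2) with a medium mu subunit, which reads tyrosine-based sorting signals, and a small sigma subunit, which with a large one reads dileucine-based signals. The sigma subunit of AP-1 is encoded by the paralogues AP1S1, AP1S2 and AP1S3, its mu subunit by AP1M1 or the epithelial form AP1M2, and its gamma subunit by AP1G1 or AP1G2.

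The labelled cell type was checked against markers. Of 15 proximal tubule and epithelial markers with a probe set, 5 were measured (CDH6, PAX8, KRT8, KRT18 and KRT19), while GGT1, MME, ANPEP, AQP1, LRP2 and CUBN lay under a log2 value of 4 on all 12 arrays. The fibroblast markers COL1A1, DCN and LUM were measured as well (3 of 6), and COL1A2, COL3A1 and PDGFRB lay under the floor. The summed level of the fibroblast list was 11.93 to 12.04 in control and 11.98 to 12.23 in Di at 12 h, and 10.92 to 11.05 in control and 10.10 to 10.17 in Di at 48 h (log2). Di and control did not overlap in it at 48 h. The summed level of the epithelial list was 13.81 to 13.87 over both groups at 12 h, and 13.46 to 13.51 in control and 13.17 to 13.23 in Di at 48 h. The part of either list in the 48 h results was not tested. No marker of endothelium, leukocytes or podocytes was measured, and of the distal nephron list AQP2 was measured, at 4.89 to 5.37. Array medians lay between 2.97 and 3.06. Replicate 2 of Di at 12 h stood farthest from its group mean over all genes (root mean square 0.252, against 0.111 to 0.182 for the other 11 arrays). It also had the lowest actin gap described next (0.95). Member values that turn on this array are given without it as well. The 12 h changes of named genes outside the members all include it. Replicates 1 and 3 of Di at 12 h correlated at up to 0.993 and 0.992 with an array of another group (Pearson's r across genes). Within their own group their lowest r was 0.987 and 0.988, so over all genes the Di arrays at 12 h did not stand apart as a group. Probes at the 3' end of the actin transcript exceeded those at its 5' end, a gap that widens as RNA degrades, by 0.95 to 1.40 in Di at 12 h and 1.55 to 1.90 in control at 12 h, without overlap. It was 1.35 to 1.49 in Di and 1.19 to 1.43 in control at 48 h. The part of this gap in the 12 h results was not tested.

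The comparison of Di with control at 12 h asked which subunits had moved early. The sigma paralogues AP1S1 and AP1S3 lay 3.80-fold and 2.17-fold higher with Di, and AP1S2, the remaining sigma paralogue of AP-1, did not pass the test. Of the other 8 members 0 were called higher and 2 lower, AP1M1 and AP1G2, against 3.90% of all genes called higher and 9.78% called lower (13.7% either way, adjusted p under 0.05). At an unadjusted p under 0.05 in limma 1 of the 8 was higher and 2 lower. Neither fall was called without replicate 2 of Di or without replicate 3 of control at 12 h, where 3 of the 8 kept an unadjusted p under 0.05 and 12.5% and 7.32% of all genes were called. The median log2 change of these 8 genes was -0.02 and that of all genes -0.06.

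AP1S1 encodes one of the interchangeable sigma subunits of AP-1. Its 3 probe sets gave the same picture of the 12 arrays. On 209635_at, the probe set with the highest mean, control arrays at 12 h stood at 8.22, 7.56 and 7.61 (log2, replicates 1 to 3) and Di arrays at 9.46, 9.96 and 9.74. Control arrays at 48 h stood at 9.00, 8.78 and 8.87 and Di arrays at 7.47, 9.47 and 8.52. The Di arrays thus lay above the controls at 12 h without overlap, while at 48 h they spanned the controls, with 1 array above them and the others below. In Di at 48 h the lowest and the highest array differed by 2.01 on the log2 scale, or 4.02-fold. The group SD of 1.00 exceeded that of 99.9% of all genes in the same 3 arrays, where the median gene had an SD of 0.107. The family was chosen for this spread of AP1S1, so the rank is description only.

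**Figure D1:**
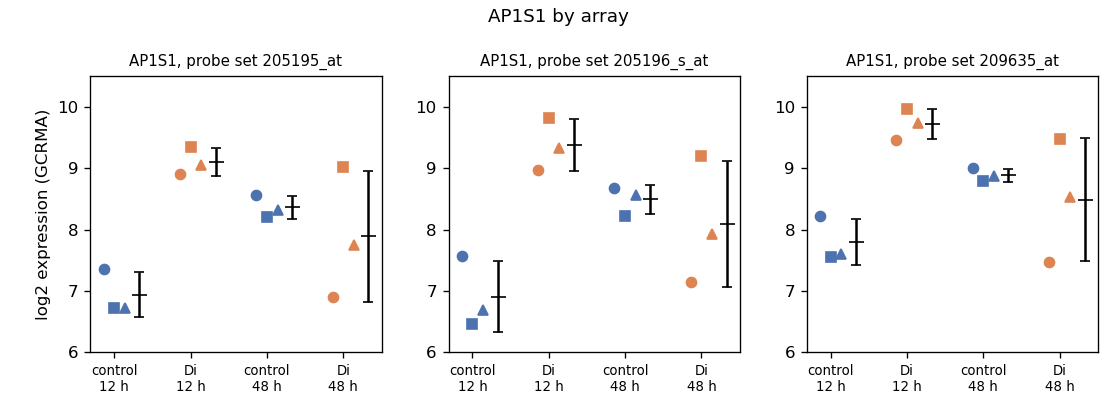
AP1S1 on its 3 probe sets. The y axis is the log2 expression value, the x axis the group, blue marks control and orange Di, the circle, square and triangle are replicates 1, 2 and 3, and the black bar is the mean with its SD (n = 3). On each probe set replicate 1 is the lowest and replicate 2 the highest of Di at 48 h, and all Di arrays lie above the controls at 12 h.

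The other probe sets, 205195_at and 205196_s_at, put the 3 arrays of Di at 48 h in the same order. On 205195_at they stood at 6.90, 9.02 and 7.75 and on 205196_s_at at 7.15, 9.19 and 7.93. Deviations from the group means correlated between the 3 probe sets with Pearson's r of 0.964 to 0.987 over the 12 arrays, which are the same RNA samples read by different probes. The spread between the arrays of Di at 48 h was therefore shared by every probe set of the gene. The log2 difference between Di and control at 12 h was 1.92 ± 0.389 (SE) on 209635_at (1.81 without replicate 2 of Di at 12 h), 2.16 ± 0.413 on 205195_at and 2.47 ± 0.452 on 205196_s_at. At 48 h the differences were -0.40 ± 0.389, -0.47 ± 0.413 and -0.40 ± 0.452. The 48 h difference on 209635_at was 0.11 once replicate 1 of Di at 48 h had been left out and -0.89 when replicate 2 was left out instead, so its direction rested on single arrays. Control arrays of AP1S1 were also higher at 48 h than at 12 h, by 1.09 ± 0.389. In order of the group means, control at 12 h was lowest (7.80), then Di at 48 h (8.49), control at 48 h (8.89) and Di at 12 h (9.72), and Di at 48 h overlapped every other group.

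AP1S3 encodes a further sigma subunit. On 1555731_a_at control arrays at 12 h stood at 7.45, 7.14 and 6.99 and Di arrays at 8.32, 8.40 and 8.21. At 48 h the controls stood at 6.66, 6.72 and 6.77 and the Di arrays at 6.29, 6.61 and 6.57. The gene was thus highest in Di at 12 h, and unlike AP1S1 it was lower in both groups at 48 h than in the controls at 12 h. The 12 h difference was 1.12 ± 0.121 on this probe set, 1.04 ± 0.231 on 1555733_s_at and 1.03 ± 0.136 on 1555734_x_at. On 237159_x_at it was 0.03 ± 0.204, with 5.48 to 5.95 in control and 5.42 to 6.17 in Di. Both 1555734_x_at and 237159_x_at carry the suffix that marks possible cross-hybridisation, and their control means at 12 h were 5.76 and 5.78. Thus 3 of the 4 kept probe sets of AP1S3 separated the 12 h groups and 1 did not, where 32.7% of all kept probe sets separated them. The family was chosen in part for the 12 h difference of AP1S3, and its probe sets read the same RNA samples. The count is therefore description only. At 48 h AP1S3 did not pass the test (-0.23 ± 0.121, adjusted p = 0.142), and the same held for its 3 other probe sets (-0.32 to -0.11, adjusted p between 0.297 and 0.62 over all probe sets).

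The windows around the annotated starts of the 3 sigma paralogues of AP-1 are shown because these genes encode the same subunit and their changes at 12 h ran from -0.12 for AP1S2 to 1.92 for AP1S1. Each holds 250 bases before and 50 bases after the start (RefSeq, GRCh38.p14). Capitals mark matches, on either strand, to any of 5 motifs. GGGCGG is a GC box, CCAAT is a box bound by the factor NF-Y and CACGTG is an E-box. The motif TGANTCA is the site of the FOS and JUN factor. A core of the antioxidant response element is searched as TGACNNNGC.

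AP1S1, chr7:101154226-101154525, plus strand: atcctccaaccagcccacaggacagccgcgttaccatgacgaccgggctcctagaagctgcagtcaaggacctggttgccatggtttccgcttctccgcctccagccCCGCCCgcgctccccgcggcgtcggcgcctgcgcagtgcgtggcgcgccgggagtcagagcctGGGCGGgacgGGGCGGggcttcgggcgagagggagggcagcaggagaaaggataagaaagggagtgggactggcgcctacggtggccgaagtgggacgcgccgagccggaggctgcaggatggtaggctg

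AP1S2, chrX:15854764-15855063, minus strand: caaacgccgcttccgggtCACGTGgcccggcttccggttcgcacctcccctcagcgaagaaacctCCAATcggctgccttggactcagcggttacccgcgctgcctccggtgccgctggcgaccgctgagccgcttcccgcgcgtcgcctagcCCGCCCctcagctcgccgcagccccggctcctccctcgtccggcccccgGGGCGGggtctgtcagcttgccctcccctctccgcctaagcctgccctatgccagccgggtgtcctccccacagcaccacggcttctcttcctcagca

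AP1S3, chr2:223837533-223837832, minus strand: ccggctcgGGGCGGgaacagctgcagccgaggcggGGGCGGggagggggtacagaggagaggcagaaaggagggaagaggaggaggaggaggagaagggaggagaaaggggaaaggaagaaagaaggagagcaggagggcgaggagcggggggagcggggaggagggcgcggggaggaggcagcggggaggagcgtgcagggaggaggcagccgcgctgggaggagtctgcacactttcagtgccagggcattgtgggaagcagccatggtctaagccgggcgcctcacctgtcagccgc

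The AP1S1 window held 3 GC boxes and the AP1S3 window 2, and neither held any other motif searched. The AP1S2 window held 2 GC boxes, 1 CCAAT and 1 CACGTG. GC boxes stood in 7 of the 9 member windows, those of AP1S1, AP1S2, AP1S3, AP1G1, AP1G2, AP1B1 and AP2M1, and in 45.0% of all 35116 windows of this length. CCAAT stood in 4 of the 9 (34.6% of all windows), CACGTG in 1 (7.26%), TGACNNNGC in 1, that of AP1B1 (13.3%), and TGANTCA in 0 (7.71%). A match to TGANTCA can overlap 1 to TGACNNNGC. The G and C content was 69.7% for AP1S1, 71.3% for AP1S2 and 68.7% for AP1S3, against a median of 58.7% over all windows. The windows differ in CG pairs, with 31 in AP1S1, 32 in AP1S2 and 18 in AP1S3. AP1M1 was not matched in this table.

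AP1S2, the sigma paralogue encoded on the X chromosome, gave opposite calls on different probe sets at 48 h. On 228415_at, the brightest, control arrays at 48 h stood at 9.52, 9.47 and 9.45 and Di arrays at 9.01, 9.18 and 9.05. On 230264_s_at the controls stood at 7.81, 7.72 and 7.87 and the Di arrays at 8.31, 8.31 and 8.16. Di lay below control on the first and above it on the second, without overlap on either. The fit over all probe sets gave -0.40 ± 0.0704 on 228415_at (adjusted p = 0.00073) and 0.46 ± 0.0706 on 230264_s_at (adjusted p = 0.000283). The probe set 203299_s_at was also called higher (0.34 ± 0.125, adjusted p = 0.0456), and 203300_x_at had 0.27 ± 0.114 (adjusted p = 0.0742). With the mean of all kept probe sets AP1S2 stood at 0.17 at 48 h (adjusted p = 0.0627), so no direction for the whole gene was given by these data. At 12 h none of the 4 passed (-0.12 to 0.25, adjusted p between 0.172 and 0.999). Without Di, all 4 probe sets of AP1S2 were lower at 48 h than at 12 h, by 0.35 to 0.86 on the log2 scale (adjusted p between 3.16e-06 and 0.00849).

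**Figure D2:**
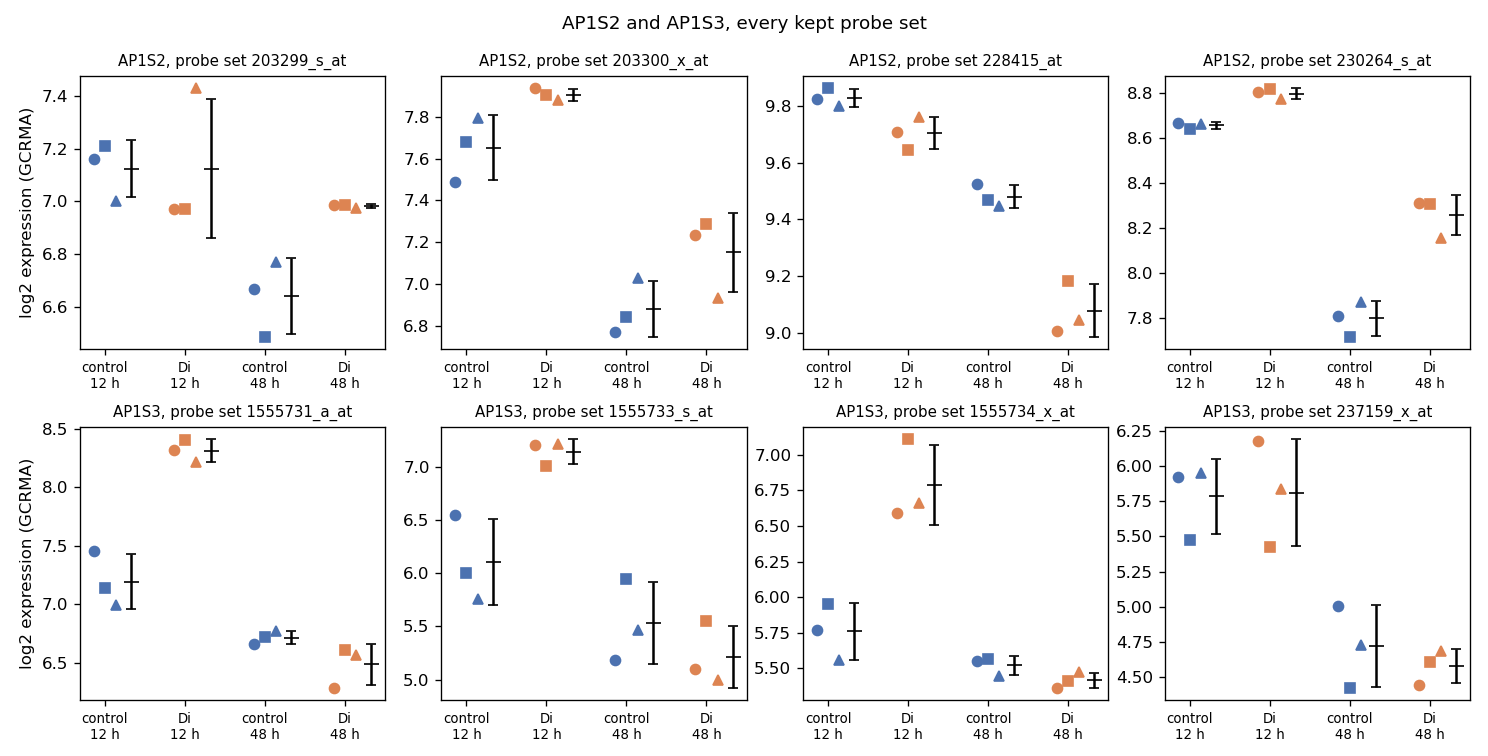
AP1S2 (upper row) and AP1S3 (lower row) on every kept probe set. The y axis is the log2 expression value with its own range in each panel, the x axis the group, blue marks control and orange Di, shapes are replicates 1 to 3, and the black bar is the mean with its SD (n = 3). At 48 h Di lies below control on 228415_at of AP1S2 and above it on 230264_s_at, and at 12 h Di lies above control on each AP1S3 probe set but 237159_x_at.

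Of the mu subunits, AP1M1 encodes the widely expressed form and AP1M2 the epithelial form. On 223024_at of AP1M1 control arrays at 12 h stood at 8.10, 8.37 and 8.33 and Di arrays at 7.99, 7.66 and 7.78. At 48 h the controls stood at 7.11, 7.20 and 7.32 and the Di arrays at 7.01, 7.18 and 7.29. The 12 h groups were separate, and both 48 h groups lay below both 12 h groups and overlapped each other. AP1M1 fell by 0.46 ± 0.111 on the log2 scale at 12 h (1.37-fold, adjusted p = 0.0222) and had -0.06 ± 0.111 at 48 h (adjusted p = 0.717). The 12 h call ended without replicate 2 or 3 of Di (-0.38 and -0.44, adjusted p = 0.0581 and 0.063), without replicate 2 or 3 of control at 12 h (-0.40 and -0.42, adjusted p = 0.0857 and 0.0769) and in a fit to the 12 h arrays alone (adjusted p = 0.0727). The second probe set, 223025_s_at, had -0.24 ± 0.0856 at 12 h (adjusted p = 0.1). The test of the difference between the 12 h and 48 h changes did not pass (0.40 ± 0.158, adjusted p = 0.0666).

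AP1M2 lay slightly above control with Di at both times. On 218261_at Di arrays stood at 8.78 to 8.95 against 8.47 to 8.75 at 12 h, and at 8.66 to 8.81 against 8.40 to 8.61 at 48 h. The groups did not overlap at either time, as in 34.8% of all genes at 12 h and 61.6% at 48 h. The changes were 0.26 ± 0.0923 (adjusted p = 0.0837) and 0.21 ± 0.0923 (adjusted p = 0.0775) and did not pass. The second probe set, 65517_at, was called higher at 48 h (0.46 ± 0.0885, adjusted p = 0.00141), from 7.40, 7.54 and 7.63 in control to 8.05, 7.89 and 7.99 in Di. With the mean of both probe sets AP1M2 was called at 48 h (0.33, adjusted p = 0.00345). The call for AP1M2 at 48 h therefore depended on which probe set stood for the gene.

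Among the large subunits of AP-1, AP1G2 passed the test at 12 h. On 201613_s_at its control arrays stood at 8.57, 8.42 and 8.47 and its Di arrays at 8.24, 8.13 and 8.26, without overlap. AP1G2, a second gamma form, fell by 0.28 ± 0.0717 on the log2 scale (1.22-fold, adjusted p = 0.0264) and had -0.16 ± 0.0717 at 48 h (adjusted p = 0.0827). The 12 h call ended without replicate 2 of Di at 12 h (-0.24, adjusted p = 0.0601), without replicate 1 or 3 of control at 12 h (-0.24 and -0.29, adjusted p = 0.0818 and 0.066), with median centring (adjusted p = 0.0641) and with only the 12 h arrays (adjusted p = 0.0877). AP1G1, the widely expressed gamma form, had 0.01 ± 0.153 at 12 h, which became 0.21 (adjusted p = 0.247) without replicate 2 of Di at 12 h, at 7.90 where the other Di arrays stood at 8.46 and 8.51, and 0.35 ± 0.153 at 48 h (adjusted p = 0.0818) on 203350_at. Its Di arrays at 48 h stood at 8.35, 8.62 and 8.51 against a control mean of 8.15, without overlap. AP1G1 on 225754_at was called higher at 48 h (0.41 ± 0.124, adjusted p = 0.0192), while on 225771_at it had 0.04 ± 0.0772 (adjusted p = 0.739). At 48 h AP1G1 passed in 4 of 20 alternatives, with quantile normalization (0.36, adjusted p = 0.0358), with the mean of all its kept probe sets (0.26, adjusted p = 0.0357), with the 48 h arrays alone (adjusted p = 0.0288) and once replicate 2 of Di at 12 h, an array outside that difference, had been left out (adjusted p = 0.0126). AP1B1, the beta subunit, had -0.05 ± 0.102 at 12 h and 0.03 ± 0.102 at 48 h (adjusted p = 0.802 and 0.841), with 7.07 to 7.41 in Di against 7.16 to 7.35 in control at 12 h.

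**Figure D3:**
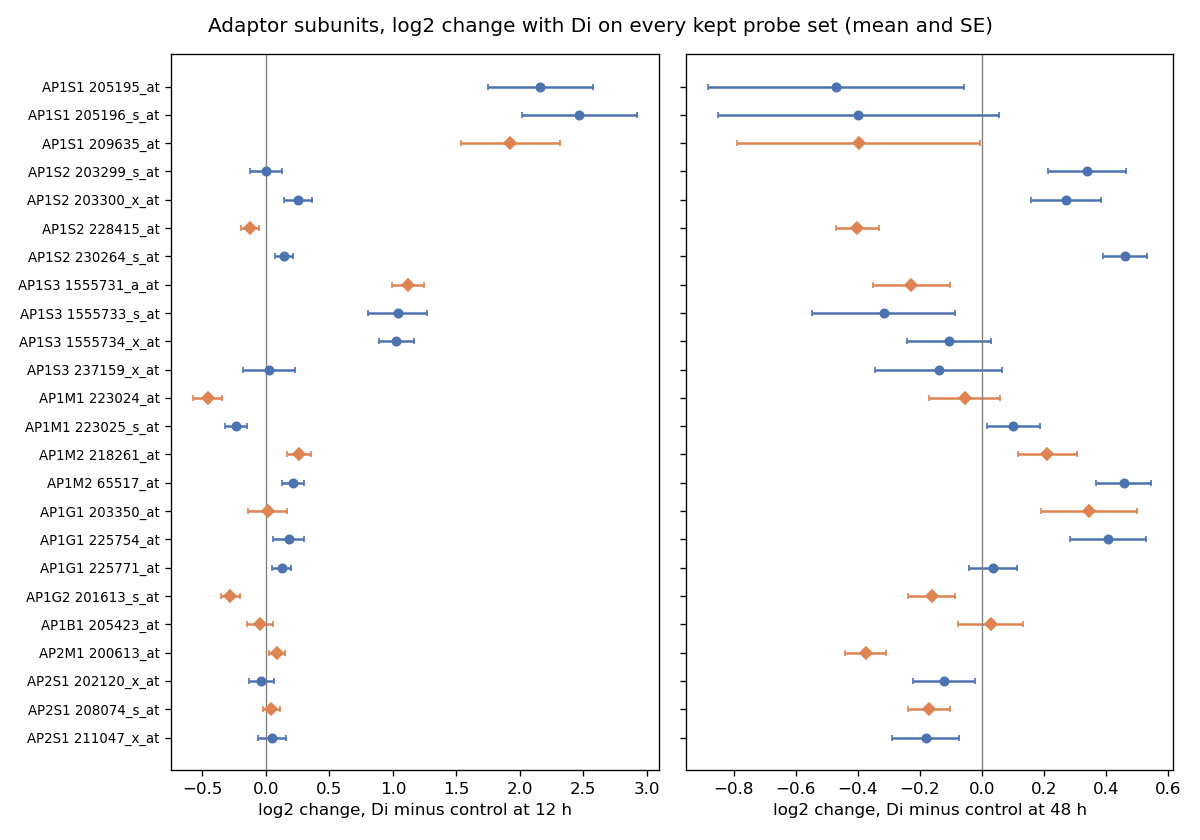
Log2 change of Di against control on the 24 kept probe sets of the 10 genes, at 12 h (left) and at 48 h (right), with the x axis in log2 units and a different range in each panel. Points are fitted differences, bars are SEs, and orange diamonds mark the probe set that stood for the gene. At 12 h the 3 probe sets of AP1S1 lie at 1.92 to 2.47, and at 48 h the probe sets of AP1S2 lie on both sides of 0.

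The comparison at 48 h asked what longer exposure did to the same genes. AP2M1, the mu subunit of AP-2, fell by 0.37 ± 0.0621 on the log2 scale (1.30-fold, adjusted p = 0.000401). AP2S1, the sigma subunit of AP-2, fell by 0.17 ± 0.0629 (1.13-fold, adjusted p = 0.0412), and AP1S2 fell on its gene-level probe set. Of the 8 members other than AP1S1 and AP1S3, 3 were called lower and 0 higher, where 28% of all genes were called lower and 22.9% higher (50.9% either way). A share of 3 in 8 lies near that background. Over the 17 kept probe sets of these 8 genes 4 were called higher and 2 lower, against 21.2% and 24.8% of all kept probe sets. For the difference between the 48 h and the 12 h change, 0 of these 8 genes were called higher and 2 lower, AP2M1 and AP1S2, against 19.8% and 18.5% of all genes (38.3% either way). In bulk RNA of a culture, less RNA per cell and fewer cells of a type cannot be told apart.

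AP2M1 was among the most even members. Its control arrays stood at 12.03, 11.99 and 11.92 at 12 h and at 12.02, 12.07 and 12.07 at 48 h, and Di arrays at 12.03, 12.13 and 12.05 at 12 h. In Di at 48 h they stood at 11.70, 11.62 and 11.71, below every other array. The change at 48 h differed from that at 12 h (0.09 ± 0.0621, adjusted p = 0.373) by -0.46 ± 0.0878 (adjusted p = 0.00173). The 48 h call of AP2M1 was kept in all 20 alternatives, between -0.41 and -0.34 (adjusted p at most 0.0027), and rests on 1 probe set, 200613_at.

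AP2S1 on 208074_s_at stood at 11.55, 11.42 and 11.49 in control and 11.54, 11.57 and 11.48 in Di at 12 h. At 48 h it stood at 11.20, 11.09 and 11.12 in control and at 10.97 ± 0.0279 (SD, n = 3) in Di, the lowest array at 10.94. Both 48 h groups thus lay below both 12 h groups, with Di the lower. The other probe sets had -0.12 ± 0.1 (202120_x_at, adjusted p = 0.358) and -0.18 ± 0.108 (211047_x_at, adjusted p = 0.201), so all 3 lay under 0 and 1 passed, at gene level only. In the fit over all probe sets 208074_s_at missed the threshold as well (adjusted p = 0.0577). The gene-level call was lost in 11 of 20 alternatives (adjusted p up to 0.141), among them those without any 1 array of Di or control at 48 h, and its value stayed between -0.20 and -0.14.

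The AP-2 subunits outside the listed members did not move one way. AP2A2, an alpha subunit, stood at 8.90, 9.05 and 9.20 in control and 8.07, 8.48 and 8.21 in Di at 12 h, and at 8.73, 8.76 and 8.83 and 8.28, 8.15 and 8.25 at 48 h. It fell by 0.80 ± 0.107 at 12 h (adjusted p = 0.00164) and by 0.54 ± 0.107 at 48 h (adjusted p = 0.00132). Its 2 other probe sets were also called lower at 48 h (-0.46 and -0.45). Every kept probe set of AP2A2 carries the suffix that marks possible cross-hybridisation. AP2B1, the beta subunit, stood at 8.46, 8.57 and 8.68 in control and 9.32, 9.40 and 9.32 in Di at 48 h, a rise of 0.77 ± 0.0696 (1.71-fold, adjusted p = 3.54e-06). The other probe set of AP2B1 was called in the opposite direction (-0.49 ± 0.148, adjusted p = 0.0195), so its direction depends on the probe set. AP2A1, the second alpha form, had 0.14 ± 0.096 at 48 h (adjusted p = 0.257) at levels of 4.47 to 4.82.

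**Figure D4:**
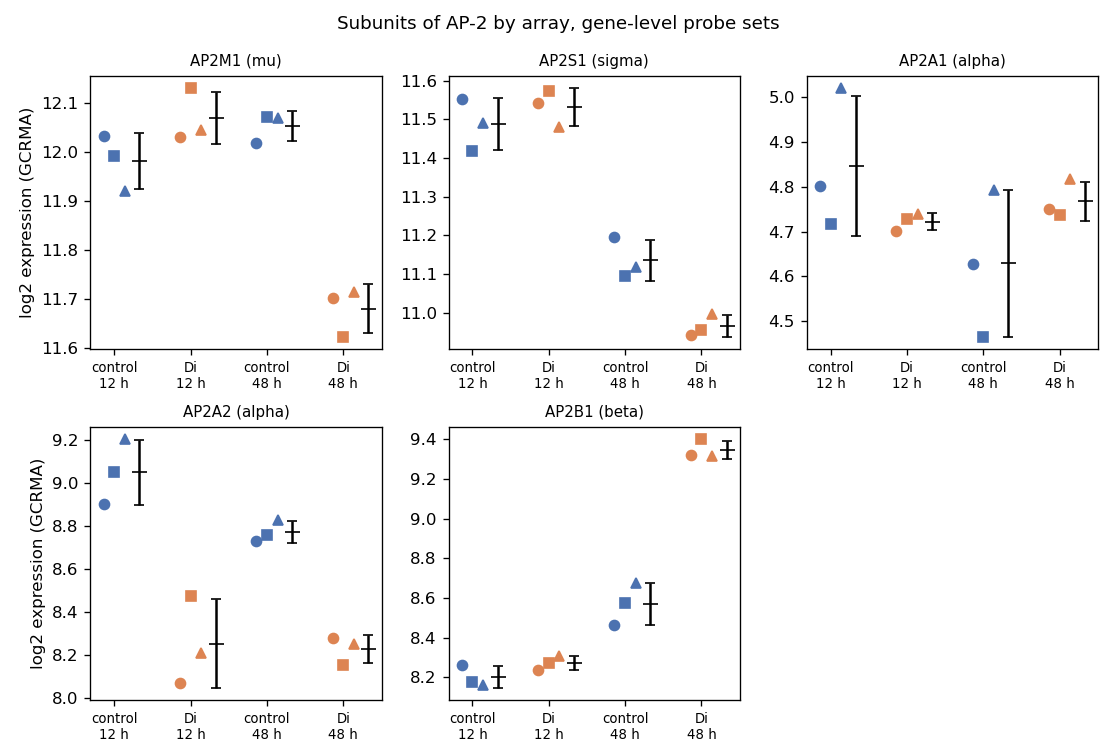
Subunits of AP-2 on the probe sets that stand for each gene. The y axis is the log2 expression value with its own range in each panel, the x axis the group, blue marks control and orange Di, shapes are replicates 1 to 3, and the black bar is the mean with its SD (n = 3). AP2M1 and AP2A2 lie lower with Di at 48 h and AP2B1 lies higher, while AP2A1 overlaps.

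The control groups showed how the genes differed between 12 h and 48 h of culture without Di. These arrays are the same controls that enter the Di comparisons. AP1M1 fell by 1.06 ± 0.111 on the log2 scale from 12 h to 48 h (2.08-fold, adjusted p = 1.43e-05), and its second probe set by 0.52 ± 0.0856. AP1B1 fell by 0.57 ± 0.102 (1.48-fold, adjusted p = 0.000676), from 7.27, 7.16 and 7.35 to 6.57, 6.68 and 6.83. AP2S1 fell by 0.35 ± 0.0629 (adjusted p = 0.000693) and AP1S2 by 0.35 ± 0.0667 (adjusted p = 0.00106). Of the 8 members other than AP1S1 and AP1S3, 4 were lower and 0 higher, against 31% of all genes called lower and 21.9% called higher (52.9% either way). These 4 calls were kept in all 20 alternatives. AP1M2 (-0.07 ± 0.0923), AP1G1 (-0.13 ± 0.153), AP1G2 (-0.17 ± 0.0717) and AP2M1 (0.07 ± 0.0621) did not pass (adjusted p between 0.0673 and 0.573). AP1G2 was called without replicate 2 of Di at 12 h (adjusted p = 0.0489), an array that does not enter the difference. Among the genes given without a test, AP1S1 was higher by 1.09 and AP1S3 lower by 0.48 in the later controls.

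The genes whose values ran most like those of AP1S1 over the 12 arrays were BAX (Pearson's r = 0.943), CDC42 (0.919), EIF5A (0.885), the antisense RNA CARD8-AS1 (0.882) and SUPT4H1 (0.862). The arrays share 4 groups, so these values describe the group pattern as well as single arrays, and 2 of 10625 genes exceeded an r of 0.9. BAX, a promoter of apoptosis in the BCL2 family, stood at 6.65, 6.48 and 6.00 in control and 7.37, 7.93 and 7.79 in Di at 12 h, and at 7.13, 6.82 and 6.93 and 6.33, 7.63 and 7.26 at 48 h. CDC42, a small GTPase of cell polarity, stood at 11.26 to 11.28 in control and 12.29 to 12.37 in Di at 12 h, and at 11.20, 11.71 and 11.68 in Di at 48 h. In both, as in AP1S1, replicate 1 of Di at 48 h was the lowest of its group and replicate 2 the highest. Both genes were picked for likeness to AP1S1 over these same arrays, so the shared order is no separate evidence.

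**Figure D5:**
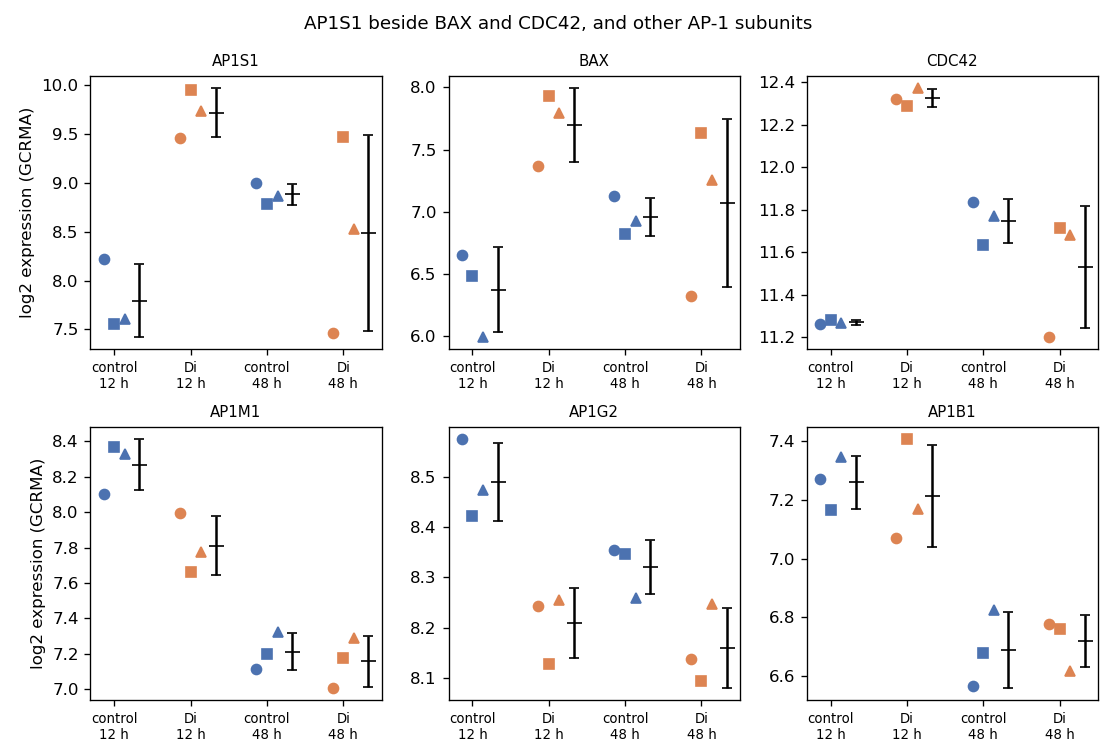
AP1S1 beside BAX and CDC42 (upper row), and AP1M1, AP1G2 and AP1B1 (lower row). The y axis is the log2 expression value with its own range in each panel, the x axis the group, blue marks control and orange Di, shapes are replicates 1 to 3, and the black bar is the mean with its SD (n = 3). BAX and CDC42 were picked for likeness to AP1S1 over these same arrays. In the upper row the circle (replicate 1) is lowest and the square (replicate 2) highest of Di at 48 h. AP1M1 and AP1B1 lie lower in both groups at 48 h than at 12 h.

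By deviations from the group means, which leave out the group pattern, the closest genes were JMJD4 (r = 0.963), SEPTIN7P14 (0.958), LOC101928409 (0.951), BORA (0.948) and ECHDC2 (0.946), and 12 of 10625 genes exceeded 0.9. JMJD4, near the floor of 4, stood at 4.29, 5.15 and 4.60 in Di at 48 h and at 4.39 to 4.53 in the controls at 48 h. Of the other members AP1S3 had an r of 0.725 and AP1S2 of 0.625 with AP1S1, and the remaining 7 lay between -0.14 and 0.33. These values hold for 1 probe set per gene. Between probe sets of the same gene, deviations correlated at -0.717 to 0.587 for AP1S3 and at -0.046 to 0.664 for AP1S2. The spread of AP1S1 within groups was not seen in most other subunits. On the probe sets that stood for the genes their SDs in Di at 48 h ran from 0.0279 for AP2S1 to 0.175 for AP1S3, where the median over all genes was 0.107. Over all their kept probe sets the SDs ran from 0.0068 on 203299_s_at of AP1S2 to 0.294 on 1555733_s_at of AP1S3. Replicate 1 of Di at 48 h lay farther from its group mean over all genes (root mean square 0.182) than replicates 2 and 3 (0.130 and 0.146). The actin gaps of replicates 1, 2 and 3 were 1.35, 1.37 and 1.49, and their part in the AP1S1 values was not tested. Over all genes each of these arrays correlated with the others of its group at 0.993 at the lowest and with arrays of other groups at 0.951 at the highest (Pearson's r across genes, which are not independent replicates). The group labels of these 3 arrays rest on the sample titles, and the opposite ends at which replicates 1 and 2 stood for AP1S1 limit what its 48 h mean shows.

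The trafficking genes around the adaptors were described with 8 lists of 91 genes, of which 69 were measured. At 12 h 2 were called higher and 11 lower (2.9% and 15.9%, against 3.90% and 9.78% of all genes). At 48 h 19 were called higher and 18 lower (27.5% and 26.1%, against 22.9% and 28%), near the background. The median log2 change of the 69 genes was -0.12 at 12 h and 0.11 at 48 h.

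The genes called higher at 12 h were cargo receptors, the transferrin receptor TFRC (0.52 ± 0.085, adjusted p = 0.00419) and the cation-dependent mannose 6-phosphate receptor M6PR (0.49 ± 0.116, adjusted p = 0.0195), which AP-1 sorts. M6PR stood at 9.61, 10.05 and 9.58 in Di and at 9.35, 9.25 and 9.18 in control at 12 h. Its size thus leans on replicate 2 of Di, the array farthest from its group mean. Only the probe set that stood for the gene was examined for TFRC and M6PR. IGF2R, the other mannose 6-phosphate receptor, fell by 0.53 ± 0.0717 at 12 h (adjusted p = 0.00164) and rose by 0.64 ± 0.0717 at 48 h (adjusted p = 2.07e-05). Of the 11 cargo proteins measured 5 were higher and 1 lower at 48 h (45.5% and 9.09%, against 22.9% and 28% of all genes). EGFR, the EGF receptor, had 0.58 ± 0.106 and the lipoprotein receptor VLDLR had -0.62 ± 0.15. Of 6 AP-1 partners 2 were higher at 48 h and 0 lower (33.3% and 0%, against the same 22.9% and 28%). They were the kinesin KIF13A, which binds AP-1 (1.00 ± 0.115, adjusted p = 2.51e-05), and the epsin-related CLINT1 (0.46 ± 0.0658, adjusted p = 0.000139).

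Of 25 endocytic partners 7 were higher and 8 lower at 48 h (28% and 32%), near the 22.9% and 28% of all genes. The largest falls were in the arrestin ARRB1 (-1.49 ± 0.118, adjusted p = 1.28e-06, with all 5 other probe sets called lower) and in HIP1R, which links clathrin coats to actin (-1.47 ± 0.101, adjusted p = 4.11e-07, with 1 of 2 other probe sets called lower and the other at -0.07). AAK1, the kinase that phosphorylates the mu subunit of AP-2, rose by 0.90 ± 0.0798 (adjusted p = 3.22e-06), and SNX9 by 0.67 ± 0.11 (adjusted p = 0.000367). Of the 3 clathrin chains measured the light chain CLTB fell by 0.31 ± 0.0949 (adjusted p = 0.0168), while CLTC (0.01) and CLTA (0.01) did not pass. The other probe sets of CLTB had -0.19 and 0.06 and were not called.

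Of the related adaptors, AP-3 had 1 of 5 subunits higher and 2 lower at 48 h (20% and 40%, against 22.9% and 28% of all genes). AP3S1 fell by 0.42 ± 0.0644 (adjusted p = 0.000244) and AP3B1 by 0.45 ± 0.115 (adjusted p = 0.00691). The other probe set of AP3B1 had -0.25 and was not called. AP3M1 rose by 0.30 ± 0.0772 (adjusted p = 0.0077), while its other probe set was called lower (-1.22). AP-4 and AP-5 had 0 of 6 higher and 2 lower at 48 h (0% and 33.3%), AP4M1 (-0.87 ± 0.154, adjusted p = 0.000614) and AP4B1 (-0.61 ± 0.0967, adjusted p = 0.000275). The GGA adaptors were listed with the ARF GTPases and their exchange factors, which recruit AP-1 to membranes. Of the 10 measured, 4 were lower at 12 h and 0 higher on the probe set that stood for each gene (40% and 0%, against 9.78% and 3.90% of all genes). The same list had 3 higher and 3 lower at 48 h (30% each, against 22.9% and 28%). At 48 h GGA1 rose by 0.34 ± 0.102, while its 3 other probe sets had 0.16 to 0.40 and were not called. ARFGEF2 rose by 0.32 ± 0.0966 at 48 h, with 1 of its 2 other probe sets called higher. At 12 h ARFGEF2 fell by 0.48, but its 2 other probe sets had -0.20 and 0.24 and were not called. ARF5 fell by 0.42 ± 0.0851 on the log2 scale, and ARF6 by 0.69 ± 0.143 on 1 probe set, while the 3 other probe sets of ARF6 had 0.0057 to 0.046.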

How the data were processed

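RNA of 12 HK-2 cultures was measured on an Affymetrix human array. The authors deposited log2 values per probe set, made with GCRMA per the submitters' processing notes (version not given), and these were used as deposited. Of 54675 probe sets 62 were controls. The array's gene table gave 1 symbol for 41097 probe sets, several for 1801 and none for 11777. Of 21715 kept probe sets 18957 had 1 gene. The brightest kept probe set stood for each gene (an _x_at probe set only where there was no other), giving 10626 genes. Groups came from the sample titles.

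Group means were estimated from the 12 arrays together by limma 3.58.1 (R 4.3.3) with moderated, two-sided tests, once over genes and once over all 21715 kept probe sets. Calls needed a Benjamini-Hochberg adjusted p under 0.05. Errors beside changes are SEs of the fit. P-values without a probe set are from the gene fit, and n = 3 arrays per group. The fit was tested on simulated data. Figures used matplotlib 3.10.9.

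The members, lists and tests were chosen with earlier results of these data known. All members were named with all their probe sets. In each trafficking list the 2 genes with the largest called change in each direction at 48 h, in groups that did not overlap, were named, with AP2A1, AP2A2 and AP2B1 whatever their values, and for AP1S1 the 5 most correlated genes. TFRC, M6PR, CLTA and CLTC were named after their values were seen. Replicate numbers did not pair the arrays. Alternatives were no filter, a higher floor of 6, moderation with trend and robust options, quantile normalization, median centring, the mean of a gene's probe sets, only the groups compared, the replicate number as a block, and each array left out.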

Additional observations from a re-analysis of the deposited data

Results flagged for a closer look

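Of the 8 members other than AP1S1 and AP1S3, 2 had a change with Di at 48 h that differed from that at 12 h by the interaction term of the limma fit (Benjamini-Hochberg adjusted p under 0.05), where 38.3% of all genes were called. The difference of log2 changes was -0.46 ± 0.0878 for AP2M1 (adjusted p = 0.00173, and called in each of 19 alternatives), whose Di arrays at 48 h were lower in 3 of 3 than every other array. It was -0.28 ± 0.0943 for AP1S2 (adjusted p = 0.038), while the probe set 230264_s_at of AP1S2 had 0.32 ± 0.0998 (adjusted p = 0.03 over all probe sets). The AP1S2 call was lost in 11 of 19 alternatives and its sign turned in 1. No test of single outlying arrays was run in groups of 3.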

How the results depend on the processing

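Counts here leave out AP1S1 and AP1S3. Of the 8 genes 2 were called at 12 h, 3 at 48 h, 2 for the difference of the changes and 4 between the controls (13.7%, 50.9%, 38.3% and 52.9% of all genes), and of the 17 probe sets 2, 6, 2 and 11 (11.9%, 46%, 33.7% and 47.7%). At 12 h, 1 gene was called with median centring (11.3% of all genes) and 0 in the limma fit to the 12 h arrays alone (5.41%), where 3 had an unadjusted p under 0.05. Of the probe sets 1 was called at 12 h without a filter, with quantile normalization and with median centring, and 0 in the fit to the 12 h arrays alone, where 5 had an unadjusted p under 0.05. For the difference of the changes 4 probe sets were called without a filter, with a floor of 6 and with trend and robust options. Leaving out 1 array gave 0 to 2 genes and 0 to 2 probe sets at 12 h, and 1 to 2 genes and 1 to 3 probe sets for the difference. Counts at 48 h and between the controls stayed within 1.5 times those reported in the alternatives run.

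With the mean of all kept probe sets AP1S2 changed sign, to 0.17 at 48 h and 0.10 for the difference of the changes. AP1M1 for that difference was called in 5 of 19 alternatives and AP2S1 in 2 of 19. Over all 19, called or not, the values ran from 0.33 to 0.49 for AP1M1 and from -0.25 to -0.18 for AP2S1. The causes were not tested. Over all genes 1453 were called at 12 h, but 575 in the fit to the 12 h arrays alone, and 745 and 778 when control replicates 2 and 3 at 12 h were left out.

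Samples that share a replicate number did not deviate together (r of -0.394 to 0.167 over genes, against -0.361 to 0.397 for other pairs). With the replicate number as a block 2, 2, 1 and 4 of the 8 genes were called, in the order above (9.44%, 47.8%, 34.3% and 49.5% of all genes), and 0, 5, 1 and 10 of the 17 probe sets (7.82%, 42.6%, 29.6% and 44.2%), with 5 probe sets under an unadjusted p of 0.05 at 12 h.

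Signal limits the AP1S3 and AP1G2 probe sets under the floor, for which no change is given, and AP2A1, whose levels at 48 h began at 4.47.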
